A study of Mus musculus with 8 samples.

Results

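Six3, Six3os1, Hes5, Fezf1, Pou3f2, Myt1 and Rmst are 7 of the 24421 genes counted in each of 8 RNA-seq libraries of mouse embryonic stem cells. They were selected on their counts at day 14, high in wild-type cells and near 0 in cells of the HNRNPK 6A mutant, so their levels at day 14 are given below as a description with no test. The cells were a hybrid of the strains CAST/Ei and 129/Sv/Jae, with wild-type (WT) HNRNPK or with its 6A mutation. HNRNPK binds RNA and belongs to the hnRNP proteins. The sources used here do not say what 6A substitutes or whether each genotype is 1 clone. At day 0 both genotypes were undifferentiated cells grown with leukemia inhibitory factor (LIF) on irradiated embryonic fibroblast feeders that were removed before harvest. At day 14 both had been without LIF, in suspension as embryoid bodies for 4 days and then plated on gelatin from day 5, a protocol that directs the cells to no single lineage. Day 14 is taken from the titles and the protocol, although the design sentence of the series has day 7. Each of the 4 groups (WT and 6A, day 0 and day 14) had 2 libraries, called biological replicates in the protocol. Nothing says that they came from separate cultures, so p-values measure only the spread between these libraries.

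The rostral end of the neural plate becomes the forebrain and the eyes, and it is set apart by low Wnt signaling and by transcription factors that repress the programme of more caudal regions. SIX3 is a homeodomain repressor of that rostral field, FEZF1 is a zinc finger repressor of the forebrain and olfactory system, and HES5 is the bHLH repressor through which Notch signaling keeps neural progenitors from differentiating. POU3F2 (also called BRN2) and MYT1 act as cells move toward the neuronal state, and Six3os1 and Rmst are long noncoding RNAs, the first transcribed opposite to Six3 and the second a neural RNA that binds SOX2.

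All 7 genes are autosomal. In GENCODE release 21 (mm10), Six3 lies on chromosome 17 (85613608 to 85629302, plus strand) and Six3os1 beside it on the minus strand (85600651 to 85618398). They overlap over 4791 bases, from 85613608 to 85618398. Hes5 lies on chromosome 4 (154960923 to 154962371, plus strand), and Pou3f2 on the same chromosome far away (22482780 to 22488366, minus strand). Fezf1 lies on chromosome 6 (23245044 to 23248362, minus strand), Myt1 on chromosome 2 (181763332 to 181827797, plus strand) and Rmst on chromosome 10 (92071037 to 92165170, minus strand).

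The promoters of 6 of the genes were in the RefSeq promoter table (GRCm38.p6, 300 bases from 250 before to 50 after the start, 5′ to 3′ on the gene's strand). They were searched on both strands for the site of RBPJ, the DNA-binding partner of Notch (TTCCCAC), the CCAAT box (CCAAT), the SOX core (ATTGT), the octamer of POU factors (ATGCAAAT), the E-box of bHLH factors (CANNTG) and the TATA box (TATAAA), motifs chosen with the sequences in view. Hes5 is shown because it is the Notch target among the 7 genes, with RBPJ sites in capitals. Six3 and Fezf1 are shown as the forebrain repressors, with CCAAT boxes, on either strand, in capitals.
Hes5 promoter (chr4:154960673-154960972, plus strand): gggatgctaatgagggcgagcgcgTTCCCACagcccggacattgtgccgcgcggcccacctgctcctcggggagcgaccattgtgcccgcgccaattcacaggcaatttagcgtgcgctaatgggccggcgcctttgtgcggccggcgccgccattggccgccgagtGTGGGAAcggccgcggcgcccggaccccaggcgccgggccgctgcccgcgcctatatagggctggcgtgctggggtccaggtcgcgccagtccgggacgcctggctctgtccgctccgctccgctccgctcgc
Six3 promoter (chr17:85620584-85620883, plus strand): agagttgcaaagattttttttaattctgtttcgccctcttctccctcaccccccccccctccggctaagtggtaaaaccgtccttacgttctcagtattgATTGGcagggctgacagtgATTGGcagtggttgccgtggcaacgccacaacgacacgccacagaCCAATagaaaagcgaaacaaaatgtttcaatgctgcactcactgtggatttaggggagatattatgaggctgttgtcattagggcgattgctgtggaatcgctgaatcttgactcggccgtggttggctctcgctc
Fezf1 promoter (chr6:23248215-23248514, minus strand): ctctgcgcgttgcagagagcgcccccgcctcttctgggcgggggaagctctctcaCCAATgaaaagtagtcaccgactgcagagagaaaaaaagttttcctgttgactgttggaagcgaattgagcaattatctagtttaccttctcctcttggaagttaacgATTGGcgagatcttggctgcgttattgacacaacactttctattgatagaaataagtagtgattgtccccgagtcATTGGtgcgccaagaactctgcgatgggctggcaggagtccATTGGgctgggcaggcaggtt
The Hes5 promoter held 2 RBPJ sites, with first bases 226 and 83 bases before the start and in opposite orientations. One such site or more was present in 6.39% of the 32544 promoters in the table and 2 or more in 0.255%. The promoters of Six3, Six3os1, Fezf1, Pou3f2 and Myt1 held no match to these 7 letters. CCAAT boxes were present in all 6 genes' promoters, with 4 in Fezf1, 3 in Six3, 3 in the first promoter of Myt1, 2 in Hes5, 2 in Pou3f2 and 1 in Six3os1. A CCAAT box was present in 37.4% of all promoters, and 2 or more in 11.6%. The SOX core, in 30.8% of all promoters, was found in Six3os1, Hes5, Fezf1 and Myt1. The E-box, in 72.3% of all promoters, was found in Six3os1 (2), Hes5 (1) and the later promoters of Myt1, and not in those of Six3, Fezf1 and Pou3f2. Exact matches to the octamer and to the TATA box as spelled above, in 1.75% and 13.6% of all promoters, were found in none of the 6 genes. Variant forms of the TATA box were not searched, so their absence is not shown. The Hes5 promoter holds a run that differs from the searched TATA box by 1 letter. In base composition the 6 genes differed: Hes5 was at 72.7% GC with 41 CpG dinucleotides, and Six3 and Fezf1 were at 50% with 14 and 13, beside medians of 53.0% and 7 over all promoters. A match is a description of the letters and shows no binding.

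Libraries held 8146684 to 15540163 counts, so levels under 1 CPM rest on a few counts. CPM is the normalised read count, scaled to the TMM-adjusted library size. Hnrnpk itself stood at 794 ± 121 CPM (WT) and 533 ± 7.54 CPM (6A) at day 0, and at 485 ± 15.1 CPM (WT) and 366 ± 26.3 CPM (6A) at day 14 (SD, n = 2 each). Y-linked genes, a marker of feeder RNA here, gave sums of 28.2 and 28.3 CPM (WT) and 43.4 and 46.9 CPM (6A) at day 0, and of between 0 and 0.0966 CPM at day 14. The part of feeder RNA in the few day 0 counts of the 7 genes was not tested.

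In undifferentiated cells the 7 genes were at or near the counting limit in both genotypes. Their counts together were 15 and 13 in the WT libraries and 18 and 17 in the 6A libraries. Fezf1 had no count in any of the 4 day 0 libraries, which allows up to 3 counts each. Six3os1 had 0 and 1 counts in WT and 0 and 2 in 6A. Of the neuronal-stage factors, Pou3f2 had 4 and 1 counts in WT and 3 and 6 in 6A, and Myt1 had 4 and 3 in WT and 4 and 1 in 6A. Hes5 had 1 and 8 counts in WT and 6 and 3 in 6A, the highest day 0 count of any of the 7 genes. Rmst had 5 and 0 counts in WT and 1 and 2 in 6A. For Six3 the counts were 1 and 0 in WT and 4 and 3 in 6A.

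The 7 genes passed the filter on low counts only through WT at day 14, and with 0 to 8 counts in a day 0 library the test of the genotypes had little room for a call. By edgeR's quasi-likelihood test with Benjamini-Hochberg adjustment over 15458 genes, 0 of the 7 genes were called between 6A and WT, which says nothing of whether their levels were alike, while 1.58% of all genes were called in either direction. At an unadjusted p under 0.05 the count was also 0, as it was with DESeq2. Six3 had the lowest p: 7 counts against 1 gave a ratio of 5.84 (95% counting interval 0.751 to 263; edgeR adjusted p = 0.37). The ratios of the other genes were 1.5 for Pou3f2 (0.452 to 5.71), 0.835 for Hes5 (0.294 to 2.37), 0.596 for Myt1 (0.149 to 2.18) and 0.501 for Rmst (0.0778 to 2.57). Six3os1 and Fezf1 were at or under 3 counts in both groups and have no ratio. At this depth a difference of several-fold between the genotypes was not detectable before differentiation.

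At day 14 each of the 7 genes had 37 to 215 counts in a WT library, while none passed 2 counts in any 6A library. In bulk RNA, fewer cells of a type and less RNA per cell cannot be told apart. The genes' counts together were 678 and 1008 in the WT libraries and 5 and 6 in the 6A libraries, which is 78.6 and 79.7 CPM against 0.483 and 0.579 CPM. This difference is what the 7 genes were chosen for. Over all genes tested, edgeR called 8.31% lower and 5.33% higher in 6A at day 14 (13.6% together).

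**Figure D1:**
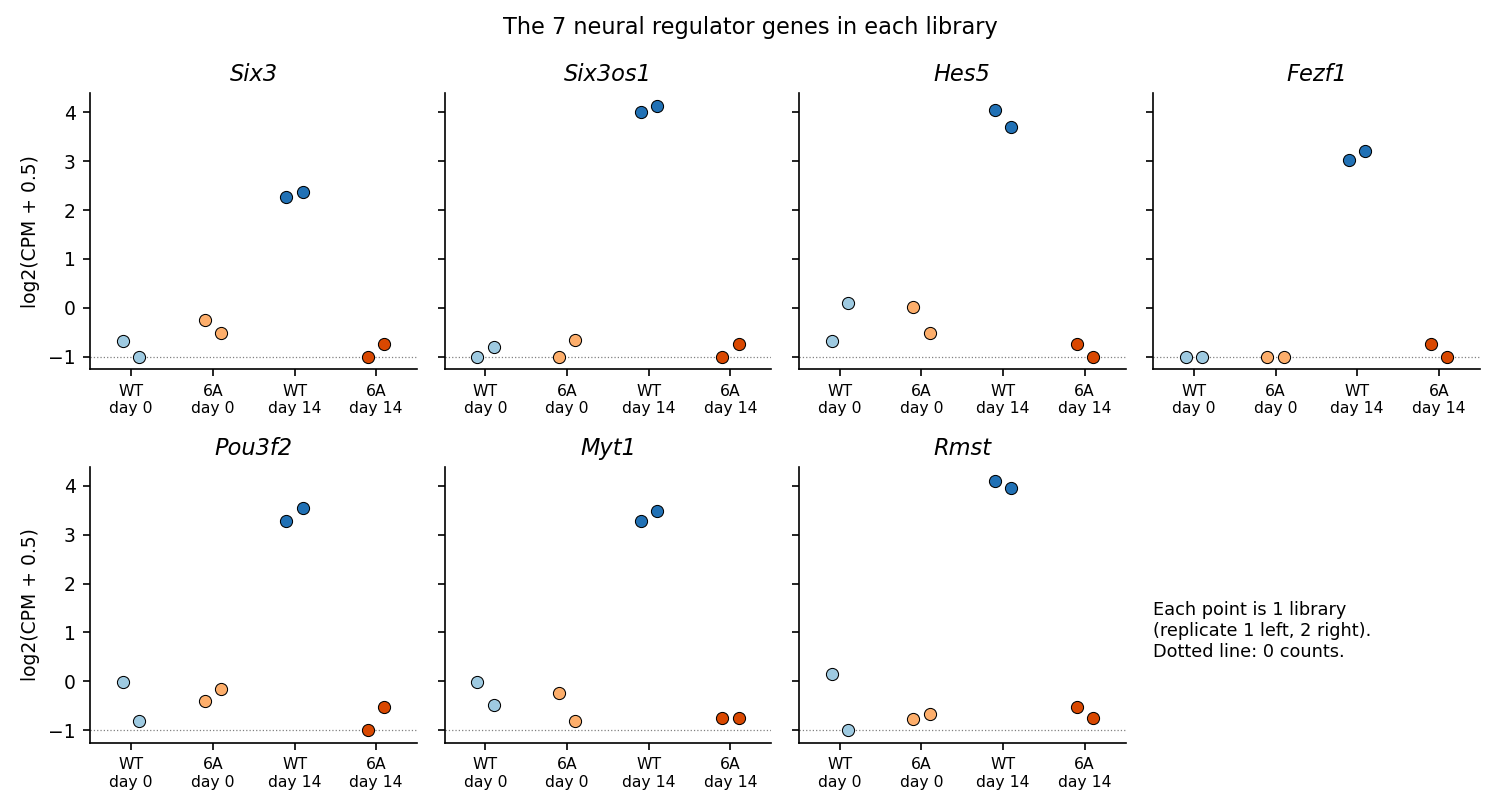
Level of each of the 7 genes as log2(CPM + 0.5), 1 point per library, with a dotted line at 0 counts. The 2 WT day 14 points stand far above the other 6 in every panel, and the 6A day 14 points lie at or just above the line.

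Six3, the eye field and forebrain repressor, had 37 and 59 counts in the WT libraries and 0 and 1 in 6A. That was 4.48 ± 0.266 CPM in WT (SD, n = 2), the lowest of the 7 genes on this scale. Against WT at day 0 the counts of Six3 were 100 times higher (96 counts against 1, interval 17.6 to 4010). In 6A, Six3 had 7 counts over both libraries at day 0 and 1 at day 14.

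Six3os1 had 134 and 215 counts in WT and 0 and 1 in 6A. In WT this was 16.3 ± 1.04 CPM, and 365 times the day 0 level (interval 65.1 to 14469). Of the opposite-strand partners, Six3os1 had 3.62 and 3.64 counts for each Six3 count in the 2 WT day 14 libraries. These proportions rest on 37 and 59 counts of Six3, and whether the pair varied together was not tested. The library kit marks strand, but no source used here says whether the counting did, so reads in the shared 4791 bases may have gone to either gene. In RefSeq the pair is divergent: Six3os1 starts at 85618396 and runs toward lower coordinates, and Six3 starts 2438 bases away at 85620834 and runs toward higher ones.

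Fezf1 had 66 and 110 counts in WT and 1 and 0 in 6A, or 8.17 ± 0.741 CPM in WT. It is the only one of the 7 genes with no count at day 0 in either genotype. Its day 14 level in WT was therefore at least 61.4-fold higher than at day 0, against a floor of 3 counts over the group.

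Hes5 had 139 and 157 counts in WT and 1 and 0 in 6A. In WT it was at 14.3 ± 2.61 CPM, the widest spread of the 7 genes in CPM, with 16.1 in replicate 1 and 12.4 in replicate 2. The WT level was 34.4 times that at day 0 (interval 17.9 to 76.0), where Hes5 had 9 counts in all. In 6A it had 9 counts in all at day 0 and 1 at day 14.

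Pou3f2 had 80 and 142 counts in WT and 0 and 2 in 6A, or 10.3 ± 1.38 CPM in WT. The WT level was 46.5 times that at day 0 (interval 19.6 to 145). Myt1, a zinc finger factor of the neuronal transition, had 79 and 136 counts in WT and 1 and 1 in 6A, or 9.96 ± 1.13 CPM in WT. Its WT level was 32.1 times that at day 0 (interval 15.3 to 80.9). In 6A, Pou3f2 had 9 counts at day 0 and 2 at day 14, and Myt1 had 5 and 2.

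Rmst, the neural long noncoding RNA, had 143 and 189 counts in WT and 2 and 1 in 6A. In WT it was at 15.8 ± 1.15 CPM, 69.5 times its day 0 level (interval 29.5 to 215). Hes5 and Rmst were higher in WT replicate 1, and the other 5 genes in replicate 2, so that the summed level of the 7 genes was nearly the same in both.

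Per kilobase of annotated exon, the order of the genes in WT at day 14 was led by Hes5 at 10.5 ± 1.92 CPM per kb and Fezf1 at 3.39 ± 0.308. Rmst followed at 2.12 ± 0.155 and Pou3f2 at 1.83 ± 0.248, whose replicate 2 values nearly met (both 2.01). Myt1 at 1.38 ± 0.157 and Six3os1 at 1.37 ± 0.0874 overlapped and cannot be ordered. Six3 was the lowest at 0.822 ± 0.0489. Six3os1 and Rmst, the noncoding RNAs, had the highest mean CPM of the 7 genes and stood lower in the order per kilobase. In CPM their libraries overlapped with each other and with those of Hes5.

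The hybrid genome allowed reads to be given to the 129 or the CAST chromosome at sites where the strains differ, a readout that the choice of genes did not use. In WT at day 14, Fezf1 and Myt1 were read from both genomes: 49 of 84 allele reads of Fezf1 (58.3%, exact Clopper-Pearson 95% interval 47.1 to 69.0) and 31 of 53 of Myt1 (58.5%, 44.1 to 71.9) came from 129. The libraries gave 70.0% and 51.9% for Fezf1 and 56.5% and 60% for Myt1. The other 5 genes were read almost only from 129. Six3os1 had 126 of 126 allele reads from 129 (lower limit 97.1%), Hes5 52 of 52 (lower limit 93.2%) and Rmst 136 of 138 (98.6%, 94.9 to 99.8). Pou3f2 had 42 of 44 (95.5%, 84.5 to 99.4) and Six3 had 12 of 13 (92.3%, 64.0 to 99.8). These intervals cover counting error only.

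The same split, between loci read almost only from 129 and loci read from both genomes, held for the genes around them. Genes within 1 Mb of Six3, Hes5, Pou3f2 and Rmst with at least 20 allele reads had median 129 shares of 98.8% (6 genes), 99.3% (40 genes), 99.0% (7 genes) and 98.2% (3 genes) in WT at day 14. Around Fezf1 the median was 36.6% (4 genes, from 18.5% to 46.6%), below the 58.3% of Fezf1 itself. Around Myt1 it was 50.2% (24 genes). In 6A at day 14 the medians around the first 4 loci were 98.1% to 99.3%, and around Fezf1 and Myt1 36.1% and 53.3%. Of 11648 autosomal genes, 63.3% had a 129 share above 95%, so a share near 100% at a locus was the common case in these libraries and does not show expression from a single chromosome. In 6A at day 14 none of the 7 genes had more than 2 allele reads, too few for a share. For Fezf1 and Myt1, the loci where both genomes could be read, both contributed reads in WT.

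The relatives of the 5 protein-coding genes in the same families were then read for the 6A difference at day 14. Of 16 relatives tested, edgeR called 10 lower in 6A and 0 higher, with a median log2 fold change of -1.02. Over all genes tested the median was 0.00. Without 6A day 14 replicate 2 the 10 calls became 6. This list was drawn up with earlier results of these data known, so its direction is not independent support. Hes2, Hes3 and Hes7 were too low to test (at most 10 counts in any library).

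The POU class III factors differed among themselves. Pou3f3, which acts beside Pou3f2 in the developing cortex, had 65 and 121 counts against 1 and 2, a WT to 6A ratio of 60.4 (interval 20.3 to 295; edgeR adjusted p = 2.7e-06). Pou3f4 fell from 2.20 ± 0.987 to 0.241 ± 0.0683 CPM by a log2 fold change of -3.08 ± 0.69 (edgeR adjusted p = 0.0087). Pou3f1, which is already expressed in pluripotent cells, did not pass the test, at 8.43 ± 1.52 CPM (WT) and 6.71 ± 1.44 CPM (6A; adjusted p = 0.43).

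Among HES and HEY repressors, Hes1 was the most abundant and stood at 147 ± 18.1 CPM (WT) and 141 ± 11 CPM (6A), a log2 difference of -0.05 ± 0.12 (edgeR adjusted p = 0.84). Hes6 fell from 20.8 ± 1.51 to 9.80 ± 2.39 CPM (-1.08 ± 0.21, adjusted p = 0.0032). Heyl, a Notch target, fell from 24.5 ± 0.762 to 10.8 ± 1.16 (-1.18 ± 0.18, adjusted p = 0.00051) and Hey1 from 28.9 ± 0.939 to 16.2 ± 0.414 (-0.83 ± 0.16, adjusted p = 0.0027). Hey2 did not pass the test (8.36 ± 0.0257 and 6.85 ± 1.5 CPM). Among these relatives of Hes5 the largest ratio of WT to 6A counts was 2.27, for Heyl, beside 296 counts of Hes5 in WT and 1 in 6A.

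Fezf2, the paralog of Fezf1 and a regulator of cortical projection neurons, had 38 and 63 counts against 2 and 0, a ratio of 49.2 (interval 13.3 to 412; edgeR adjusted p = 7.8e-05). Myt1l had 41 and 70 counts against 2 and 2, a ratio of 27.0 (10.3 to 101; adjusted p = 0.00011). St18, the third MYT factor, fell from 4.17 ± 0.814 to 1.5 ± 0.205 CPM (adjusted p = 0.016).

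Of the homeodomain relatives of Six3, Six6 is the one that shares the eye field with it, and it had 15 and 17 counts against 2 and 2, a ratio of 7.79 (interval 2.76 to 30.3; edgeR adjusted p = 0.011). Six2, Six4 and Six5 did not pass the test (adjusted p = 0.28, 0.51 and 0.095). The calls of Six6 and St18 were lost without any single day 14 library and with DESeq2, and that of Hes6 without 6A day 14 replicate 2. Pou3f4 lost its call without WT day 14 replicate 1 and without either 6A day 14 library.

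**Figure D2:**
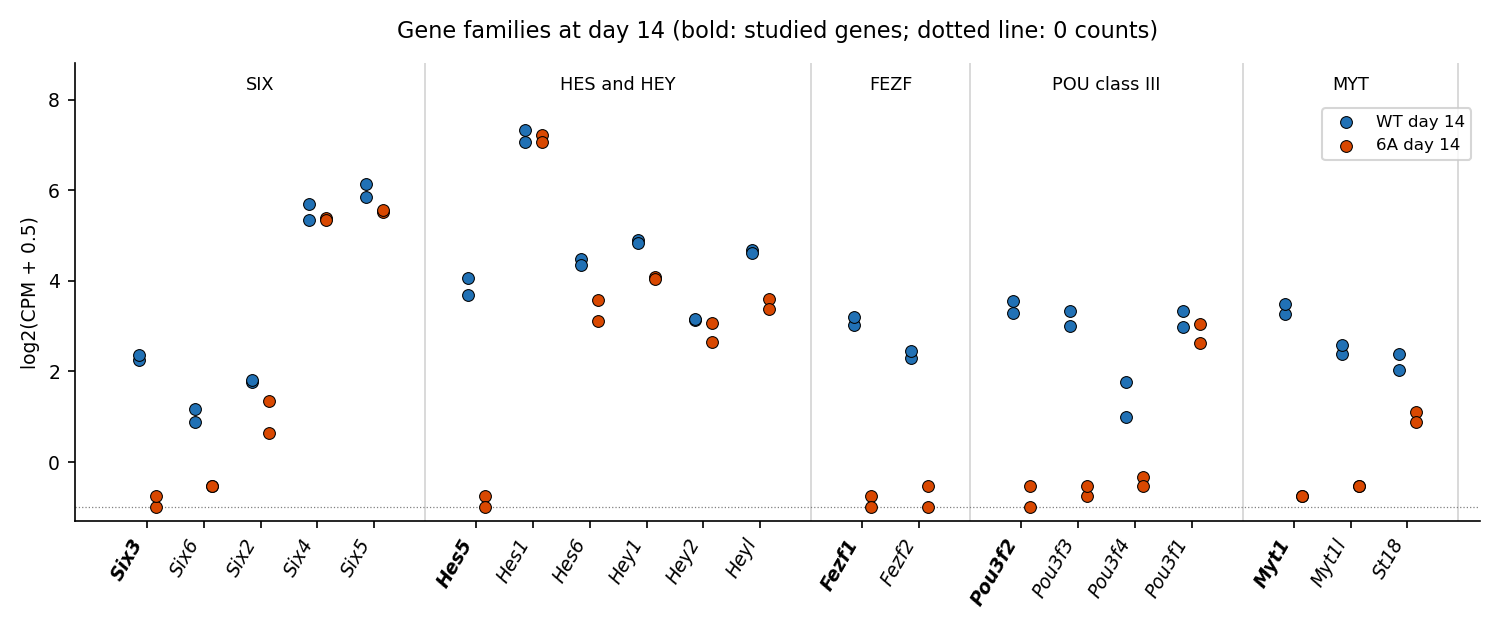
Day 14 level, as log2(CPM + 0.5), of family relatives and of the 5 protein-coding genes studied (bold), 1 point per library, with a dotted line at 0 counts. Hes1, Six4 and Six5 lie at like heights in both genotypes, whereas Pou3f3, Fezf2 and Myt1l drop to near the line in 6A together with the bold genes.

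The genes' place in a wider neural programme was described with 6 neural lists of 107 tested genes in all, the 7 genes left out. In 6A at day 14, 71 of the 107 were lower and 1 was higher, with a median log2 fold change of -1.78. In WT cells 79 of the 107 had risen and 17 had fallen between day 0 and day 14 (over all genes tested, edgeR called 38.4% higher and 36.8% lower in that comparison, 75.2% together). All of these lists were drawn up with earlier results known, so their direction is not independent support.

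Forebrain and eye field factors were lower for 16 of 23 tested and higher for none, with a median of -2.90. Pax6, the regulator of eye and cortex, fell from 10.6 ± 0.422 to 1.01 ± 0.205 CPM (-3.38 ± 0.28, edgeR adjusted p = 4.1e-06). Lhx5, a LIM homeodomain factor, had 35 and 48 counts in WT and 1 and 2 in 6A (ratio 26.9, 8.90 to 133). Genes of the more caudal central nervous system were lower too, 11 of 20 tested, with none higher and a median of -1.15. Dbx1, Olig2 and Nkx2-2, which pattern spinal cord and hindbrain progenitors, had 68, 50 and 34 counts in WT and none in 6A. That was at least 22.1-fold, 16.2-fold and 11-fold lower in 6A, against a floor of 3 counts over the group. Lmx1a, a roof plate and midbrain factor, fell from 3.66 ± 0.0872 to 0.338 ± 0.205 CPM (adjusted p = 0.00038). The call of Olig2 was lost with DESeq2, and the 11 calls became 5 without WT day 14 replicate 1 and 7 without 6A day 14 replicate 1. The lower counts were thus found on lists of both anterior and posterior factors, and the difference between those lists was not tested.

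Proneural factors and early neuron genes were lower for 19 of 20 tested and higher for none, with a median of -3.21. Dcx, a microtubule protein of migrating neurons, fell from 20.3 ± 1.36 to 1.16 ± 0.0003 CPM (edgeR adjusted p = 2.4e-06), and the neuronal cytoskeleton genes Map2 and Tubb3 from 50.7 ± 5.08 to 7.53 ± 0.412 and from 55.8 ± 8.13 to 11.1 ± 0.481 CPM. Tubb3 had 1586 to 2707 counts at day 0 and so is no marker of neurons alone in these cells.

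Neural progenitor genes were lower for 10 of 19 tested and higher for none, with a median of -0.80. Zic1 fell from 45.5 ± 2.34 to 3.57 ± 0.409 CPM, the matrix proteoglycan Ncan from 23.3 ± 2.25 to 1.45 ± 0.410, and the radial glial genes Fabp7 and Ptprz1 from 8.25 ± 0.521 to 0.338 ± 0.205 and from 18.5 ± 3.37 to 3.62 ± 0.479 (edgeR adjusted p from 3.2e-07 to 2.1e-05). Sox1, Sox2 and Nes were added after their values were seen because they define neural progenitors. Sox1 fell from 18.3 ± 0.779 to 1.35 ± 0.273 CPM (adjusted p = 5.2e-05). Sox2 was at 56.5 ± 1.86 and 47.3 ± 4.08 (adjusted p = 0.20) and Nes at 59.1 ± 7.29 and 68.0 ± 14.1 (adjusted p = 0.71), and Sox2 is also a factor of pluripotent cells.

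Of the other neural long noncoding RNAs, 8 of 12 tested were lower and 1 was higher in 6A, with a median of -3.63. Miat fell from 52.0 ± 2.67 to 2.27 ± 0.477 CPM (-4.51 ± 0.22, edgeR adjusted p = 5.1e-08). The host transcript of a miR-124 copy, Mir124a-1hg, fell from 6.53 ± 0.383 to 0.628 ± 0.0681. Dlx6os1 had 44 and 83 counts against 6 and 2, and Dlx1as 25 and 31 against none (at least 18.2-fold lower). The 1 higher call was lost without any single day 14 library.

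The Notch pathway, which acts through RBPJ on Hes5, had 8 of 28 tested genes lower and 1 higher, with a median of -0.34, and the higher call was lost without any single day 14 library. Among its ligands, Jag2 fell from 23.7 ± 1.55 to 8.40 ± 0.139 CPM (edgeR adjusted p = 0.00038), Dll1 from 11.5 ± 0.614 to 4.01 ± 0.613 (adjusted p = 0.00041) and Jag1 from 109 ± 4.37 to 69.2 ± 4.66 (adjusted p = 0.0015). Rbpj and Notch1, added after their values were seen, did not pass the test, with Rbpj at 121 ± 4.65 and 128 ± 6.52 CPM (adjusted p = 0.70) and Notch1 at 166 ± 16.2 and 125 ± 2.43 (adjusted p = 0.063). The members Hes1, Hey1, Hey2 and Heyl, are also counted among the family relatives above.

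Signals of the head organizer and of the anterior-posterior axis were lower for 4 of 19 and higher for 2, with a median of -0.04. Wnt8b, a signal of the dorsal forebrain, had 79 and 103 counts in WT and 1 and 2 in 6A (ratio 59.1, interval 19.9 to 289). Wnt1, of the midbrain and dorsal neural tube, had 67 and 62 against 2 and 2 (ratio 31.4, 12 to 117). Shisa2, an inhibitor of Wnt and FGF receptors, fell from 48.1 ± 3.22 to 24.7 ± 0.267 CPM, and Shh from 11.5 ± 0.00663 to 3.48 ± 1.23 (edgeR adjusted p = 0.00049 and 0.0015). The 2 higher calls became 1 without either WT day 14 library or 6A day 14 replicate 2.

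**Figure D3:**
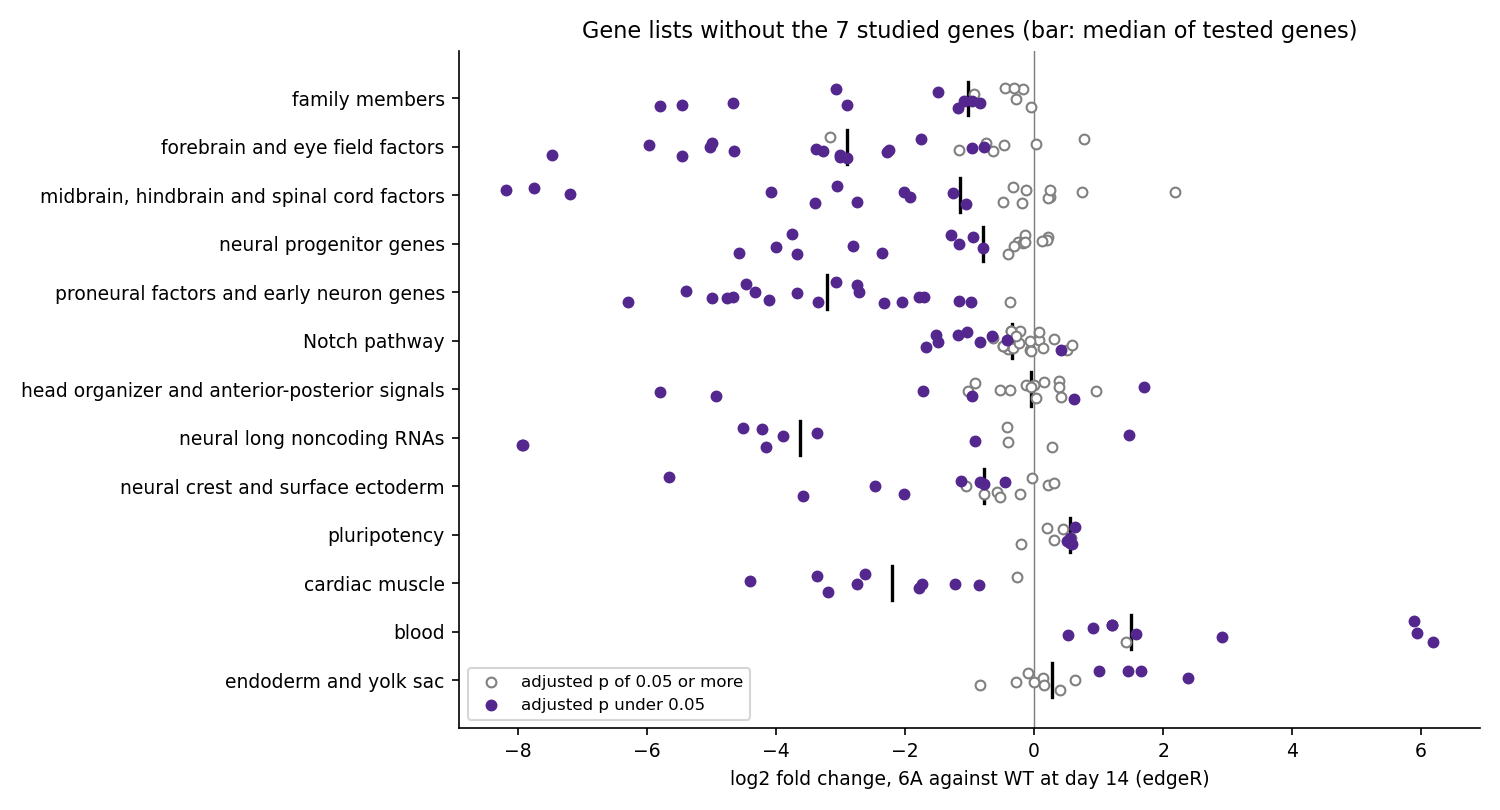
Fitted log2 fold change of 6A against WT at day 14 for each tested gene of 13 lists, with the 7 studied genes left out, filled where the edgeR adjusted p is under 0.05 and with a bar at each list's median. Neural lists and cardiac muscle lie mostly below 0, whereas blood and pluripotency genes lie mostly above it.

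Genes of other cell types moved at the same time. Of the neural crest and surface ectoderm list, 8 of 16 were lower and none higher (Tfap2b, Pax3, Trp63 and Grhl2 among them). Cardiac muscle genes were lower for 9 of 10, and Myh7, a cardiac myosin, fell from 169 ± 1.74 to 8.01 ± 1.5 CPM. The heart genes Actc1, Myh6 and Myl7 were also lower. Blood genes were higher for 9 of 10, led by the embryonic globins Hba-x, Hbb-bh1 and Hbb-y (28.3 ± 0.948, 29.2 ± 1.99 and 17.5 ± 1.16 CPM in 6A, each under 0.5 in WT). Lyz2, a myeloid gene, was higher in 6A as well. Endoderm and yolk sac genes were higher for 4 of 12 (Cubn, Apob, Sox7 and Amn) and pluripotency genes for 5 of 11, among them Tfcp2l1, Tdgf1, Esrrb and Zfp42, with none lower on either list. The calls of Amn, Tfcp2l1, Tdgf1, Esrrb and Zfp42 were each lost without at least 2 of the 4 single day 14 libraries, and the 5 pluripotency calls became 1 to 3. The part of these differences in cell makeup in the values of the 7 genes was not tested.

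Before differentiation the same lists hardly differed. Of the 212 tested genes on all 14 lists, 3 were called lower and 3 higher in 6A at day 0 (0.518% and 1.06% of all genes tested). These were Dtx1, Lfng and Fgf17 lower and Hmga2, Ebf3 and Lyz2 higher, named after their values were seen. Without 1 library the lower calls numbered 0 (6A day 0 replicate 2) to 10 (WT day 0 replicate 1), and the higher calls 0 (either 6A day 0 or either WT day 14 library) to 3. The 6A difference at day 14 was tested against that at day 0 by the interaction term in edgeR. It was called more negative at day 14 for 46 of the 212 genes and more positive for 9, beside 3.34% and 1.4% of all genes tested (4.74% together). The 46 became 26 without 6A day 0 replicate 2, 28 and 25 without WT day 14 replicates 1 and 2, and 29 without 6A day 14 replicate 1. The 9 became 3 to 5 without either 6A day 0 library, either WT day 14 library or 6A day 14 replicate 2. Of the neural genes, 34 of 107 were called more negative and 1 more positive.

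By likeness of pattern over the 8 libraries, the 10 genes nearest to the mean of the 7 included, in order, Pou3f3, Wnt8b, Neurog2, Pax3, Nhlh2, Wnt1, Scg2, Fabp7 and Fezf2. The measure was the root mean square difference of log2(CPM + 0.5), each gene centred on its own mean, among 13777 genes. It ran from 0.241 for Pou3f3 to 0.448 for Fezf2, while the 7 genes themselves stood at 0.179 (Fezf1) to 0.506 (Six3) from their own mean. Neurog2 had 65 and 106 counts in WT at day 14 and 1 and 4 in 6A. Pax3 had 60 and 110 against 0 and 3. Nhlh2 had 84 and 143 against 0 and 5, and the neuropeptide precursor Scg2, the only one of the 10 on no list, had 59 and 77 against 1 and 4. With a pseudocount of 2 in place of 0.5, 7 of the 10 genes were the same.

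The genes next to the 7 on the chromosome were read as well. Of 12 nearest neighbours, 10 were tested, and edgeR called 2 lower and 0 higher in 6A at day 14 (8.31% and 5.33% of all genes tested), with a median log2 fold change of -0.16. Pank4, 1752 bases from Hes5, fell from 83.2 ± 1.44 to 61.3 ± 3.5 CPM (-0.44 ± 0.12, adjusted p = 0.028). Cadps2, 14411 bases from Fezf1, fell from 3.09 ± 0.437 to 1.30 ± 0.0686 CPM (-1.25 ± 0.35, adjusted p = 0.029). Both calls were lost without any single day 14 library and with DESeq2. Six2, the neighbour of Six3, had 25 and 38 counts in WT and 21 and 11 in 6A, and Oprl1, the neighbour of Myt1, 19 and 35 against 13 and 11 (adjusted p = 0.28 and 0.094). Camkmt, Tnfrsf14, Aass, Fbxl4, Pcmtd2 and Tmpo, the other tested neighbours, had adjusted p from 0.30 to 0.93. They lay from 10057 bases (Pcmtd2 from Myt1) to 889722 bases (Tmpo from Rmst) away, so not all were close to the gene studied. Aass was lower in 6A at day 0, before Fezf1 was detected (73 and 130 counts in WT, 37 and 55 in 6A, adjusted p = 0.014). Pnky, a noncoding RNA beside Pou3f2, had 1 and 2 counts in WT and none in 6A, too few to test, as were those of Gm20757 beside Rmst.

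**Figure D4:**
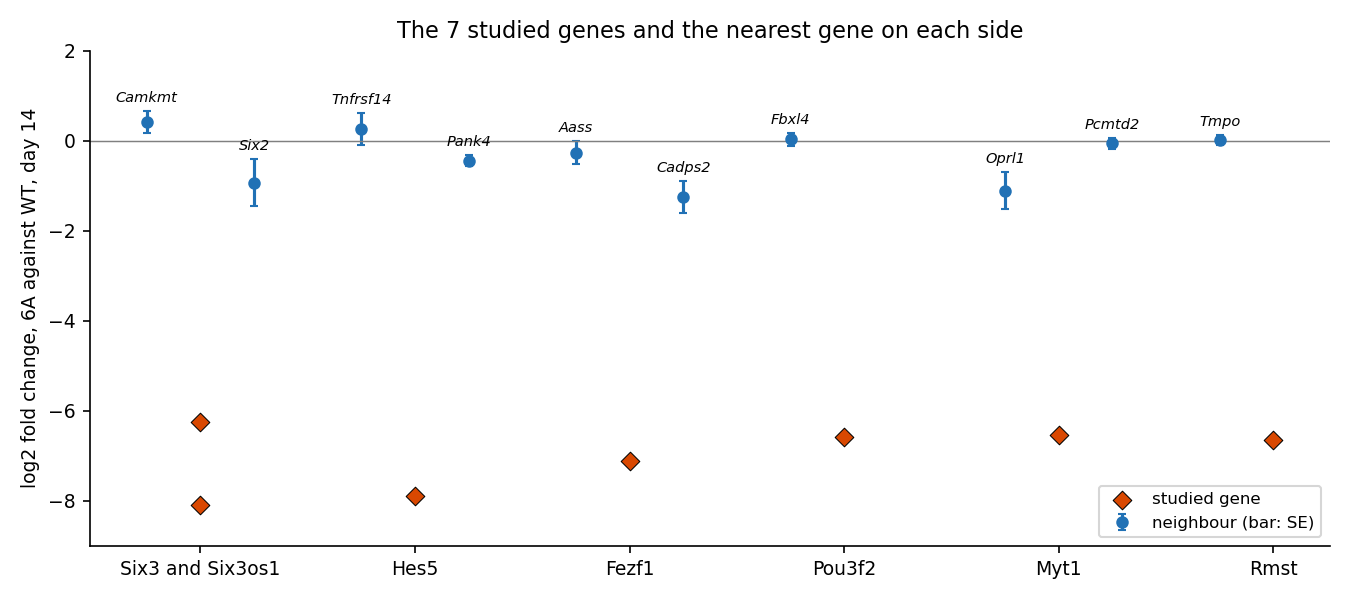
Fitted log2 fold change of 6A against WT at day 14 for the studied genes (diamonds, a description with no test) and for the nearest tested gene on each side (circles, with the standard error). The neighbours, 1752 to 889722 bases away, lie between -1.25 and 0.42, whereas the studied genes lie at -6.25 (Six3) or lower.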

How the data were processed

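RNA-seq counts of 8 mouse libraries in 4 groups (WT and 6A, day 0 and day 14, 2 libraries each) were analysed. The deposited tables hold raw read counts per gene, with a count of all reads and counts of reads given to CAST and to 129. Per the labels' protocols, total RNA was depleted of ribosomal RNA and made into directional libraries. Per the submitters' processing notes, cutadapt 1.4.2, STAR 2.7.10a and mm10 were used. No source used here gives the counting tool, its strand setting, the annotation or the allele method. Between 29.1% and 31.6% of counts had an allele.

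Counts of all reads were fitted with edgeR 4.0.16 (R 4.3.3): filterByExpr on the group left 15458 genes, TMM scaling, a robust quasi-likelihood fit of all 8 libraries with 1 coefficient per group (4 residual degrees of freedom), and Benjamini-Hochberg adjustment with calls under 0.05. An exact two-sided permutation test of 1 gene could reach p = 0.333 at best with such groups. Ratios of summed counts have exact 95% conditional intervals, and all intervals cover counting error only. A gene at 0 was set at a floor of 3 counts over the group. DESeq2 1.42.0, RLE scaling, no filter, the compared groups only, a replicate block and leaving out each library were alternatives.

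The 7 genes, the 14 gene lists and the motifs were chosen with earlier results of these data known. Named genes are the 7, all measured family relatives, up to 4 genes of each other list by smallest adjusted p at day 14, the nearest gene on each side and the 10 most similar in pattern. A few genes that this rule names are counted in their lists but not reported here. Gene symbols were matched to GENCODE release 21 (23264 directly, 682 by synonym, 475 not matched). The allele medians around each gene were added after seeing the data. The promoter table held none for Rmst.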

Additional observations from a re-analysis of the deposited data

Results flagged for a closer look

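For 16 named genes the 6A difference at day 14 was larger in the negative direction than at day 0 by the edgeR interaction test across all genes. The 7 studied genes were not tested. Values are the day 14 log2 difference minus the day 0 log2 difference. For forebrain factors it was -3.27 for Pax6 (adjusted p = 0.00027) and -3.66 for Lhx5 (adjusted p = 0.050). For family relatives it was -5.07 for Pou3f3, -5.77 for Myt1l and -0.98 for Hey1 (adjusted p from 0.0062 to 0.034). The neuronal genes Map2 and Tubb3 gave -2.32 and -2.09 (adjusted p = 8.0e-05 for both). Among progenitor genes it was -3.24 for Ncan, -1.90 for Ptprz1 and -3.80 for Zic1 (adjusted p from 0.00041 to 0.0062). The noncoding RNAs Miat, Mir124a-1hg and Dlx1as gave -3.63, -2.93 and -9.74 (adjusted p = 6.5e-05, 0.0012 and 0.014), and the value of Dlx1as depends on the prior count because 6A had none at day 14. The Notch ligands Jag1 and Jag2 gave -0.74 and -1.39 (adjusted p = 0.017 and 0.015), and Tfap2b of the neural crest list -4.20 (adjusted p = 3.1e-05).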

How the results depend on the processing

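At day 0 the count of called genes among the 7 was 0 in each alternative, where 0 to 8 counts a library left little room for a call. The 98 lower calls among listed genes at day 14 ranged from 83 to 109 without 1 library, and the 22 higher calls from 11 to 25. Listed genes in WT between the days gave 39 to 45 lower and 140 to 148 higher calls. At day 0 the 3 lower calls became 5 with RLE size factors, 9 with no filter, 7 with the replicate block and 0 with only those 2 groups fitted, and 0 to 10 without 1 library. The 3 higher calls became 5 with no filter, 7 with the replicate block and 0 with only those 2 groups fitted, and 0 to 3 without 1 library. In the interaction, the 46 lower calls ranged from 25 to 53 and the 9 higher calls from 3 to 10 without 1 library. The cause was not tested. Of 61 named genes called at day 14, 48 kept their call in every alternative and none reversed. The 13 that lost it in at least 1 alternative were Amn, Cadps2, Esrrb, Hes6, Nhlh2, Olig2, Pank4, Pou3f4, Six6, St18, Tdgf1, Tfcp2l1 and Zfp42. The 129 share without 1 WT day 14 library was 90.0% to 100% for Six3, 51.9% to 70.0% for Fezf1 and 96.9% to 100% for Rmst. Libraries of the same number in different groups deviated together with r from 0.0182 to 0.564 (6 pairs of groups, 10376 genes), so 1 of the 6 was under the 0.1 asked of every pair, and the labels tie no number to a shared culture or day. The numbers were therefore not used to pair the samples. The replicate block gave 105 lower and 23 higher calls at day 14. Leaving out 1 library of a group leaves 1, which is assumed to vary like the other groups. Depth limits the day 0 values and all 6A day 14 values of the 7 genes to a few counts.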
